A study of Homo sapiens with 12 samples.

Results

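The genes described here are 9 transcription factor genes around the output of the molecular clock, grouped here as E-box clock outputs: the REV-ERB receptors NR1D1 and NR1D2 with their competitor RORA, the PAR-bZIP activators DBP, TEF and HLF with their competitor NFIL3, and the DEC repressors BHLHE40 and BHLHE41. They were taken by name from a table of 38021 gene names, and all 9 were found. RNA was sequenced from 786-O, a clear cell renal cell carcinoma line that lacks functional VHL, and from WT8, its derivative that expresses wildtype VHL. Each line carried a lentiviral shRNA, either a scrambled control (shControl) or one against BMAL1 (shBMAL1), which made 4 groups of 3 biological replicates: 786-O shControl, 786-O shBMAL1, WT8 shControl and WT8 shBMAL1. All 12 cultures had been infected and selected in puromycin, and the sources used here do not say whether WT8 is 1 clone, so an effect of VHL and another difference between the lines cannot be told apart. The labels say shBMAL1 without naming the hairpin, so an effect of losing BMAL1 and another effect of a hairpin cannot be told apart. No synchronization of the clocks or time of harvest is given for these RNA samples, so a changed level and a shifted phase of a rhythm cannot be told apart.

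BMAL1 and its partner CLOCK bind E-boxes and activate their target genes. REV-ERB proteins repress BMAL1 and other genes through elements that they share with the ROR activators. The PAR-bZIP factors DBP, TEF and HLF activate genes through D-boxes, at which NFIL3 (also called E4BP4) represses. The DEC proteins bind E-boxes themselves and oppose BMAL1 and CLOCK, and BHLHE40 is also known as a hypoxia-induced gene. Many of these factors are thus outputs of the clock and feed back on it.

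The promoters were searched first, since the E-box is what these genes are grouped by, although NFIL3 and RORA are better known for other elements. RefSeq windows from 250 bases before to 50 bases after a start site were at hand for all 9 genes, 13 windows in all, and each was found exactly once in GRCh37 (RefSeq sequence of GRCh38.p14). The E-box CACGTG occurred in windows of 4 of the 9 genes, BHLHE40, BHLHE41, NR1D2 and TEF, and in 8.77% of all 27305 genes with such windows (7.26% of 35116 windows). The sites are shown because they are the letters that BMAL1 and CLOCK are known to read, each 5′ to 3′ on the strand of its gene with the E-box in capitals and GRCh37 coordinates.
NR1D2, chr3:23987445-23987474, plus strand, 155 bases before its second start site: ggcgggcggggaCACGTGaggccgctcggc
NR1D2, chr3:23987495-23987524, plus strand, 105 bases before the same start site: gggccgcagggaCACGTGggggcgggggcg
TEF, chr22:41763252-41763281, plus strand, 195 bases before its first start site: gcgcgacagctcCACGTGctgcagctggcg
TEF, chr22:41777741-41777770, plus strand, 193 bases before its second start site: cacctggccccgCACGTGtctatcttatcc
BHLHE40, chr3:5020872-5020894, plus strand, 245 bases before its start site: tccaaCACGTGagactcatgtga
BHLHE41, chr12:26278001-26278030, minus strand, 48 bases before its start site: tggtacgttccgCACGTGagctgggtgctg

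By the GENCODE annotation both NR1D2 sites and the second TEF site lie in introns of longer transcripts of the same gene, and the other 3 sites lie upstream of all transcripts of their gene. NR1D1 had no CACGTG in its window but the variant CACGTT, read on the strand opposite to the gene, which 6.44% of all genes held. It is shown with the variant in capitals as the gene strand gives it.
NR1D1, chr17:38256993-38257022, minus strand, 168 bases before its start site: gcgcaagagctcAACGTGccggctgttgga

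A D-box, the element of the PAR-bZIP factors and NFIL3, occurred in NR1D2 alone among the 9 genes. It was in the form TTATGTAA, again on the opposite strand, which 1.13% of all genes held. It stands upstream of both NR1D2 E-boxes.
NR1D2, chr3:23987407-23987436, plus strand, 194 bases before its second start site: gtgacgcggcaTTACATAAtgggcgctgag

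The form TTACGTAA was in none of the 9 genes and in 0.146% of all genes. The core AGGTCA of the element that ROR and REV-ERB proteins share was in 1 gene, NFIL3, and in 16.5% of all genes. The core ACGTG of the hypoxia response element was in 5 of the 9 genes and in 24.9% of all genes, and each CACGTG holds it on both strands. BHLHE40 had 2 more matches of this core apart from its E-box. Windows of DBP, HLF and RORA held none of these letters, which says nothing of sites elsewhere in those genes.

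**Figure D1:**
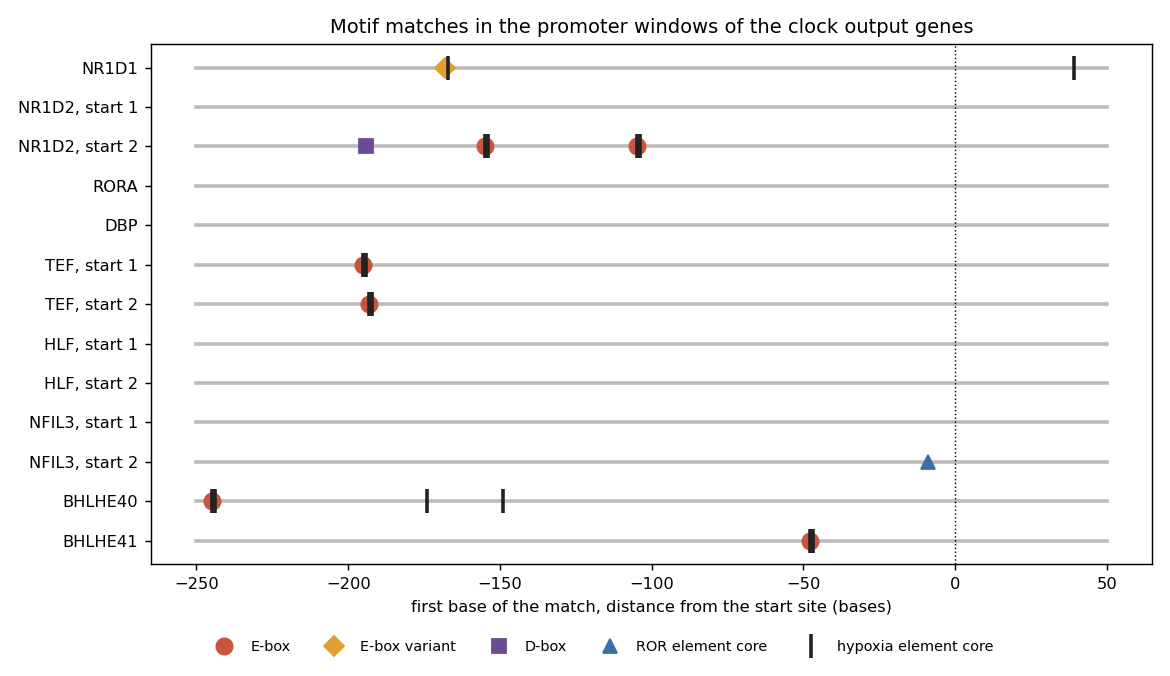
Each grey line is one promoter window of a clock output gene and the horizontal axis is the distance in bases of the first base of a match from the start site. Circles mark E-boxes, in NR1D2 (2 in one window), TEF, BHLHE40 and BHLHE41, and the windows of RORA, DBP and HLF are empty.

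Total counts ran from 33182025 to 36477509 per library. Levels are given as CPM (counts scaled by library total and TMM factor), and within a group the log2 CPM of any pair of libraries had an r of 0.991 to 0.992 across genes. ARNTL, the name of BMAL1 in the table, fell with shBMAL1 from 378 to 464 counts to 128 to 142 in 786-O and from 309 to 355 to 56 to 72 in WT8. The fall was larger in WT8 (log2 -2.48) than in 786-O (log2 -1.62). The difference was -0.86 (SE 0.195, adjusted p 0.000368 in edgeR's quasi-likelihood test). The knockdown was thus not equal in the lines, and its part in their different responses was not tested. VHL was 52.2-fold higher in WT8 shControl than in 786-O shControl, and both genes were thus where the labels place them. Within WT8, VHL was itself lower with shBMAL1, at 631.2 to 661.2 against 916 to 1020 CPM (log2 -0.60), so the WT8 groups did not have equal VHL transcript, and its part in the WT8 changes was not tested. All 7 renal epithelial markers were present in 786-O, while KRT19 was nearly absent from WT8. Mean KRT19 was 184.1 CPM for 786-O shControl but 0.42 CPM for WT8 shControl, 438-fold lower. Under BMAL1 knockdown the KRT19 means were 144.3 CPM (786-O) and 0.21 CPM (WT8). The sum of the 7 markers went with shBMAL1 from 1705 to 1792 CPM to 2346 to 2387 in 786-O (4 higher, 3 lower). In WT8 this sum went from 2544 to 2610 CPM to 1758 to 1865 (all 7 lower). The sum of 8 markers of other cell types was low but also moved, from 10.12 to 12.4 CPM to 5.17 to 6.63 in 786-O and from 8.81 to 10.28 CPM to 3.45 to 4.49 in WT8. Of the 5 tested, 2 were higher and 1 lower in 786-O, COL1A1 2.22-fold lower, and 4 were lower in WT8, PDGFRB 5.23-fold. CD3E of T cells was at 0 in all 12 libraries and PTPRC of leukocytes had at most 1 count. The numbers of markers called stand beside 24.5% of all genes tested called higher and 24.4% lower with shBMAL1 in 786-O, and 32.9% and 36.9% in WT8. The part of either marker list in the results was not tested.

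Both REV-ERB genes fell with shBMAL1 in both lines, but each fell more in a different line. The larger fall of NR1D2 was in 786-O and that of NR1D1 in WT8. NR1D1 (chromosome 17, 38249046 to 38256842, minus strand), which encodes REV-ERBα, had 254, 237 and 271 counts in the 786-O shControl libraries and 176, 165 and 142 with shBMAL1. In WT8 it had 289, 247 and 259 counts with shControl and 126, 125 and 112 with shBMAL1. In each line all 3 shBMAL1 libraries lay below all 3 shControl libraries. The mean fell from 7.30 ± 0.475 CPM (SD, n = 3) to 4.63 ± 0.499 in 786-O, a log2 change of -0.66 (SE 0.13, adjusted p 6.1e-05 in edgeR's quasi-likelihood test over all genes). In WT8 it fell from 7.35 ± 0.439 to 3.23 ± 0.201 CPM, a log2 change of -1.19 (SE 0.13, adjusted p 6.82e-10). The fall was larger in WT8 by 0.53 on the log2 scale (interaction -0.53, SE 0.18, adjusted p 0.0152). These are bulk cultures, in which fewer cells that express a gene and less RNA of it per cell cannot be told apart.

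NR1D2 (chromosome 3, 23986777 to 24022108, plus strand) encodes REV-ERBβ. It had 1565, 1618 and 1495 counts in 786-O shControl and 422, 456 and 494 in 786-O shBMAL1. In WT8 it had 1646, 1848 and 1814 counts with shControl and 1154, 1241 and 1208 with shBMAL1. The shBMAL1 libraries were again the lower ones without overlap, and those of 786-O were by far the lowest of the 4 groups. The 786-O means were 44.8 ± 2.01 CPM with shControl and 13.15 ± 1.035 with shBMAL1, 3.41-fold lower (log2 change -1.77, SE 0.08, adjusted p 4.85e-20 in edgeR). WT8 went from 49.2 ± 4.44 to 32.1 ± 1.28 CPM (log2 change -0.62, SE 0.07, adjusted p 1.3e-09). The interaction was 1.15 (SE 0.10, adjusted p 9.56e-12), opposite in sign to that of NR1D1. Per kilobase of the canonical transcript, NR1D2 exceeded NR1D1 by a ratio of 3.10 ± 0.329 in 786-O shControl and 3.38 ± 0.465 in WT8 shControl. With shBMAL1 the ratio was 1.45 ± 0.277 in 786-O and 5.01 ± 0.409 in WT8. The sum of both genes per kilobase went from 11.3 ± 0.255 to 4.27 ± 0.0390 CPM in 786-O and from 12.2 ± 0.721 to 7.36 ± 0.241 in WT8.

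RORA (chromosome 15, 60780483 to 61521501, minus strand), the activator that competes with the REV-ERBs, had 1 count in 1 library of 786-O shBMAL1 and 0 in the other 11. A count of 0 allows up to 3 counts, or 0.0822 to 0.0904 CPM by library, and RORA was not tested. Its relative RORB was at 0 in all libraries. RORA-AS1, a noncoding gene on the strand opposite to RORA, had 6 to 43 counts. The low RORA level leaves 8 of the 9 genes for the tests.

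The PAR-bZIP genes did not move as one group. DBP, an albumin promoter binding factor and one of the most rhythmic transcripts in many tissues, was barely present in 786-O. It had 13, 19 and 6 counts in 786-O shControl, 9, 13 and 6 in 786-O shBMAL1, 119, 113 and 104 in WT8 shControl, and 21, 26 and 23 when WT8 carried shBMAL1. The WT8 shControl libraries stood far above all others and the 786-O groups overlapped. DBP (chromosome 19, 49133287 to 49140636, minus strand) fell 4.97-fold with shBMAL1 in WT8, from 3.11 ± 0.248 to 0.623 ± 0.0688 CPM (log2 change -2.32, SE 0.30, adjusted p 1.67e-08 in edgeR), the largest change of the 8 genes in that line. In 786-O the log2 change was -0.44 (SE 0.43, 95% interval -1.28 to 0.41, adjusted p 0.446), so at these counts a fall of over 2-fold was still within the interval. It ran from -0.78 without 786-O shControl replicate 3 to -0.03 without 786-O shControl replicate 2, with -0.75 and -0.21 without 786-O shBMAL1 replicates 2 and 3, and was called in none of these fits. The interaction was -1.88 (SE 0.54, adjusted p 0.00355).

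HLF (chromosome 17, 53342321 to 53402548, plus strand) showed the same contrast between the lines but rose where DBP fell. It had 10, 5 and 8 counts in 786-O shControl, 11, 4 and 10 in 786-O shBMAL1, 60, 94 and 67 in WT8 shControl, and 164, 165 and 167 when WT8 carried shBMAL1. All WT8 libraries lay above all 786-O libraries, and within WT8 the shBMAL1 libraries were the higher ones. The rise in WT8 was 2.15-fold, from 2.06 ± 0.586 to 4.41 ± 0.0555 CPM (log2 change 1.10, SE 0.22, adjusted p 4.14e-05 in edgeR). In 786-O the log2 change was 0.12 (SE 0.46, 95% interval -0.79 to 1.02, adjusted p 0.867). The lines were not shown to differ in their response, with an interaction of 0.98 (SE 0.52, adjusted p 0.117). Without 786-O shControl replicate 2, 786-O shBMAL1 replicate 1 or WT8 shControl replicate 2 the interaction was called, at 1.22, 1.24 and 1.24.

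TEF (chromosome 22, 41763337 to 41795330, plus strand) went in opposite directions in the 2 lines. Its counts were 148, 177 and 180 in 786-O shControl and 116, 137 and 145 in 786-O shBMAL1, groups that lay apart by 3 counts. In WT8 they were 107, 86 and 89 with shControl and 153, 165 and 157 with shBMAL1. WT8 shControl was the lowest group and all 3 of its libraries lay below every other library. TEF was lower with shBMAL1 in 786-O, from 4.83 ± 0.446 to 3.81 ± 0.432 CPM (log2 change -0.34, SE 0.15, adjusted p 0.0646 in edgeR), a call that was lost without 786-O shControl replicate 2, 786-O shControl replicate 3 or 786-O shBMAL1 replicate 1, at -0.31, -0.30 and -0.26. It was higher in WT8, from 2.61 ± 0.263 to 4.23 ± 0.174 CPM (log2 change 0.70, SE 0.16, adjusted p 0.00021). The interaction was 1.04 (SE 0.22, adjusted p 0.000129).

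Together these changes altered which PAR-bZIP transcript was the main one, as the bars of CPM per kilobase by library show. TEF made up 84.3% ± 5.63 (SD, n = 3) of the summed DBP, TEF and HLF level per kilobase in 786-O shControl and 83.9% ± 3.58 in 786-O shBMAL1. In WT8 shControl DBP made up 60.0% ± 1.01 and TEF 24.96% ± 2.50. In WT8 shBMAL1 TEF made up 47.7% ± 0.301, HLF 38.2% ± 1.25 and DBP 14.2% ± 1.04. The sum itself was 1.31 ± 0.111 and 1.04 ± 0.0879 CPM per kilobase in the 786-O groups against 2.39 ± 0.196 and 2.02 ± 0.0756 in the WT8 groups, in the order shControl and shBMAL1. No test was made of the shares, and they rest on the annotated length of one transcript per gene.

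**Figure D2:**
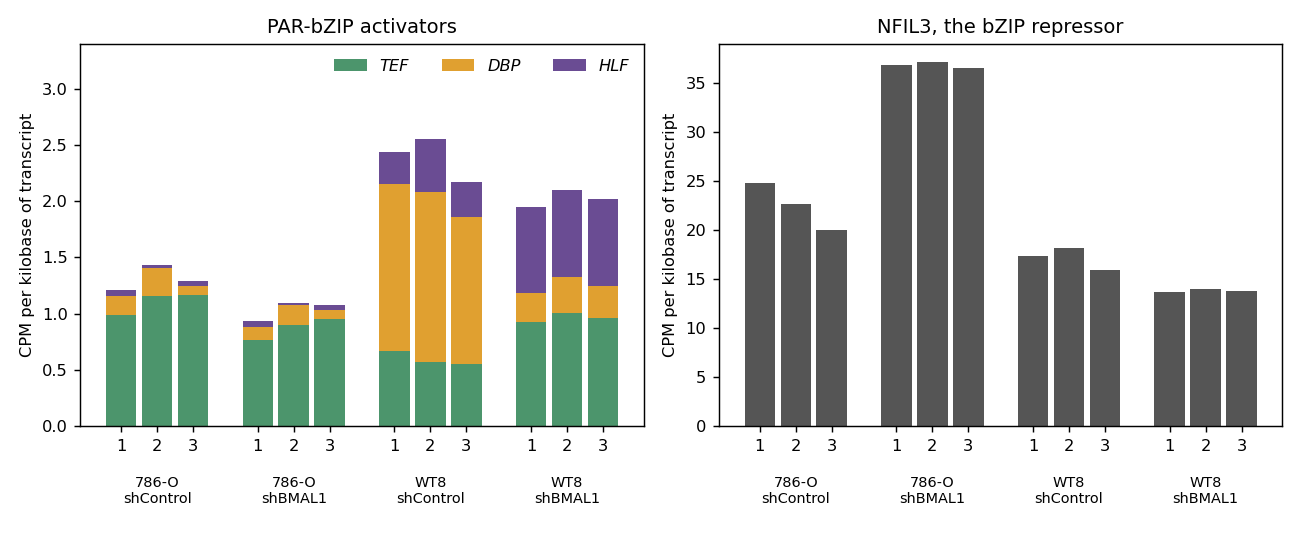
Bars give CPM per kilobase of transcript in each library, with the 3 replicates of each group side by side, stacked for TEF, DBP and HLF on the left and for NFIL3 on the right. DBP is the largest block in the WT8 shControl libraries only, and NFIL3 reaches 36.6 to 37.2 in 786-O shBMAL1 against 13.7 to 24.8 elsewhere.

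NFIL3 (chromosome 9, 94171327 to 94186114, minus strand), the repressor at D-boxes, rose in 786-O and fell in WT8. It had 1746, 1627 and 1445 counts in 786-O shControl and 2637, 2652 and 2615 in 786-O shBMAL1. In WT8 it had 1310, 1287 and 1203 counts with shControl and 1057, 1076 and 1055 with shBMAL1. The groups did not overlap in either line. The rise in 786-O was from 46.2 ± 4.93 to 75.7 ± 0.600 CPM (log2 change 0.71, SE 0.07, adjusted p 2.28e-11 in edgeR) and the fall in WT8 from 35.2 ± 2.34 to 28.4 ± 0.357 CPM (log2 change -0.31, SE 0.07, adjusted p 0.000139). The interaction was -1.03 (SE 0.09, adjusted p 1.47e-11). NFIL3 exceeded the PAR-bZIP sum per kilobase in every library, by a ratio of 17.3 ± 2.76 in 786-O shControl, 35.75 ± 3.18 in 786-O shBMAL1, 7.18 ± 0.126 with shControl in WT8 and 6.83 ± 0.178 with shBMAL1 there.

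The DEC genes differed from each other. BHLHE40 (chromosome 3, 5021122 to 5027008, plus strand) had the highest level per kilobase of the 9 genes in all 4 groups. It had 5679, 5332 and 5787 counts in 786-O shControl and 5838, 5634 and 5376 in 786-O shBMAL1, which overlap. In WT8 it had 4843, 4132 and 4707 counts with shControl and 2378, 2206 and 2282 with shBMAL1. The WT8 shBMAL1 libraries lay below all the others. The means in 786-O were 160.9 ± 7.32 and 161.4 ± 6.64 CPM, a log2 change of 0.01 with a 95% interval from -0.09 to 0.10 (adjusted p 0.957 in edgeR). In WT8 it fell 2.07-fold, from 126.5 ± 5.99 to 61.1 ± 2.11 CPM (log2 change -1.05, SE 0.05, adjusted p 9.89e-20), and the interaction was -1.05 (SE 0.07, adjusted p 2.23e-15).

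BHLHE41 (chromosome 12, 26272963 to 26277970, minus strand) moved little with shBMAL1. It had 753, 670 and 747 counts in 786-O shControl, 839, 833 and 789 in 786-O shBMAL1, 500, 490 and 609 in WT8 shControl, and 534, 558 and 648 when WT8 carried shBMAL1. The shBMAL1 libraries were above the shControl libraries in 786-O, while the WT8 groups overlapped. The log2 change in 786-O was 0.18 (SE 0.09, adjusted p 0.0892 in edgeR), a call that was lost in 6 of 12 fits that each left out 1 library, those without 786-O shControl replicates 2 or 3, each of the 3 786-O shBMAL1 replicates or WT8 shBMAL1 replicate 2, in which the change ran from 0.12 to 0.21. In WT8 it was 0.07 (SE 0.09, 95% interval -0.11 to 0.24, adjusted p 0.537), and the interaction was -0.12 (SE 0.13, adjusted p 0.47). The ratio of BHLHE40 to BHLHE41 per kilobase was 9.20 ± 0.247 and 8.13 ± 0.120 in 786-O with shControl and shBMAL1, and 10.23 ± 1.18 and 4.72 ± 0.554 in WT8.

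**Figure D3:**
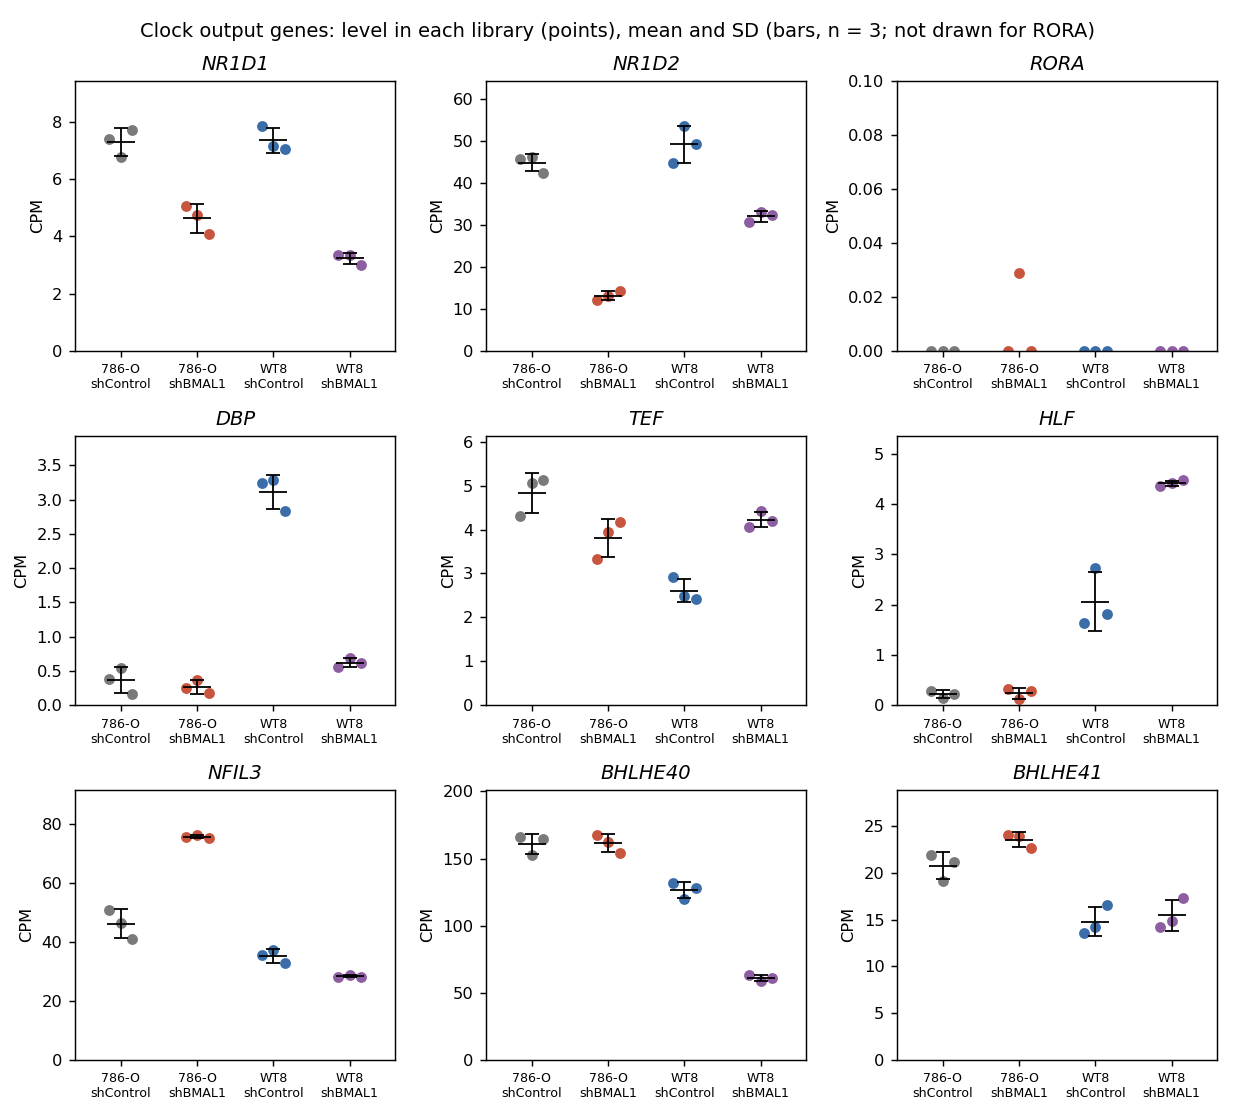
Points give CPM in each library for the 9 genes by group and bars the mean and SD (n = 3), with each vertical axis from 0 and RORA without bars. NR1D1 and NR1D2 are lower with shBMAL1 in both lines, and DBP and BHLHE40 fall with shBMAL1 in WT8.

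Counted together, 5 of the 8 tested genes were called in 786-O, NFIL3 and BHLHE41 higher and NR1D1, NR1D2 and TEF lower, where 48.9% of all 16838 genes tested were called, 24.5% higher and 24.4% lower. In WT8 7 of 8 were called, TEF and HLF higher and NR1D1, NR1D2, DBP, NFIL3 and BHLHE40 lower, against 69.8% of all genes, 32.9% higher and 36.9% lower. Libraries of the compared groups did not overlap for 5 of the 8 genes in 786-O and 7 in WT8, and for 50.9% and 67.6% of all genes. The interaction was called for 6 of 8, NR1D2 and TEF higher and NR1D1, DBP, NFIL3 and BHLHE40 lower, against 56.0% of all genes, 27.4% with a higher and 28.6% with a lower value in WT8. These shares are set beside broad responses of the whole transcriptome, and the counts alone single out nothing about the 8 genes. Their median size of change was 0.39 in 786-O and 0.87 in WT8, where the medians over all genes tested were 0.25 and 0.45. Of the 4 of 8 genes called in both lines, where 38.1% of all genes were, NR1D1 and NR1D2 had the same direction and TEF and NFIL3 opposite directions. Calls in opposite directions were made for 12.1% of all genes. The 4 genes with a CACGTG in their windows had no common direction: in 786-O NR1D2 and TEF were lower, BHLHE41 higher and BHLHE40 not called, and in WT8 NR1D2 and BHLHE40 were lower, TEF higher and BHLHE41 not called.

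**Figure D4:**
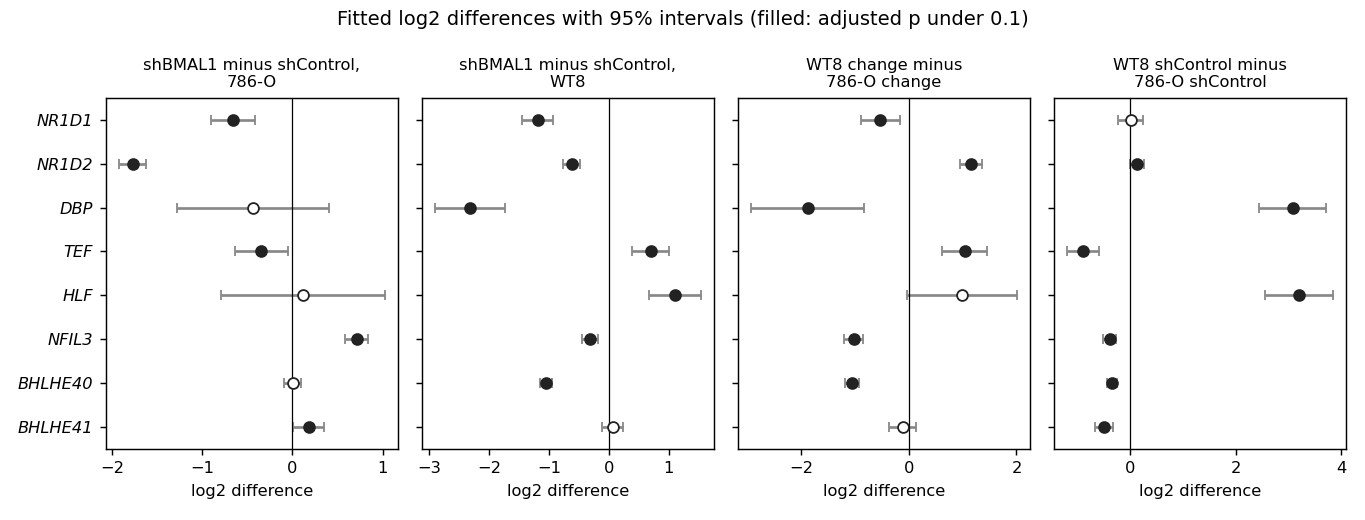
Points give the fitted log2 difference of each gene with its 95% interval in 4 comparisons, filled where the adjusted p was under 0.1, and the scale of the horizontal axis differs between panels. NR1D2 has the largest fall in 786-O (-1.77) and DBP in WT8 (-2.32).

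The lines themselves were compared with shControl in place. WT8 expresses wildtype VHL and 786-O lacks functional VHL, but an effect of VHL and another difference between the lines cannot be told apart. The shControl libraries also serve as the controls of the shBMAL1 comparisons, so the values are set side by side only. In WT8 shControl 7 of 8 genes were called, 3 higher and 4 lower, where 79.5% of all genes were called, 39.3% higher and 40.1% lower, and the groups did not overlap for 6 of the 8 against 77.5% of all genes. DBP was 8.48-fold higher than in 786-O shControl (log2 3.08, SE 0.32, adjusted p 1.2e-10 in edgeR) and HLF 9.19-fold higher (log2 3.20, SE 0.33, adjusted p 5.93e-11). TEF was lower (log2 -0.89, adjusted p 4.33e-06), as were BHLHE41 (log2 -0.49, adjusted p 7.35e-06), NFIL3 (log2 -0.39, adjusted p 2.57e-06) and BHLHE40 (log2 -0.35, adjusted p 6.62e-08). NR1D2 was called 0.14 higher on the log2 scale (adjusted p 0.0758) although its groups overlapped, and this call was lost without 786-O shControl replicates 1 or 3 or WT8 shControl replicates 2 or 3, at 0.07 to 0.14. NR1D1 was at 0.01 (adjusted p 0.936). With shBMAL1 in both lines, the WT8 libraries were higher than those of 786-O in HLF (log2 4.18, SE 0.30), NR1D2 (log2 1.29, SE 0.08) and DBP (log2 1.21, SE 0.39) and lower in NFIL3, BHLHE40, BHLHE41 and NR1D1, 7 of 8 genes called where 73.0% of all genes were.

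Ordered by level, NR1D1 ran from WT8 shControl and 786-O shControl, which did not differ beyond their spread, to 786-O shBMAL1 and WT8 shBMAL1. For NR1D2 the order was WT8 shControl, 786-O shControl, WT8 shBMAL1 and 786-O shBMAL1. DBP ran from WT8 shControl to WT8 shBMAL1 and then both 786-O groups, which were not separated. HLF ran from WT8 shBMAL1 to WT8 shControl and then both 786-O groups, again not separated. For TEF only WT8 shControl, the lowest group, differed from its neighbour in the order (adjusted p 0.00239 in edgeR). NFIL3 fell from 786-O shBMAL1 through 786-O shControl and WT8 shControl to WT8 shBMAL1, with each step called. BHLHE40 and BHLHE41 were highest in the 786-O groups, which were not separated for BHLHE40, while the WT8 groups were not separated for BHLHE41.

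Several other measures moved with the groups. A list of 10 HIF target genes summed to 1791 to 1862 CPM in the shControl libraries of 786-O and 1909 to 1942 in its shBMAL1 libraries, and to 975 to 1063 CPM with shControl and 346.8 to 349 with shBMAL1 in WT8. With shBMAL1 6 of the 10 were called higher and 2 lower in 786-O, and 1 higher and 7 lower in WT8. Of all genes tested, 24.5% were called higher and 24.4% lower in 786-O, and 32.9% and 36.9% in WT8. A list of 10 cell cycle genes summed to 526.8 to 551.9 CPM in WT8 shControl against 2274 to 2519 in the other 3 groups, and all 10 were higher with shBMAL1 in WT8. The part of both in the changes of the clock output genes was not tested. Genes on the opposite strand overlap several members, and the sources used here do not state whether strand was used in counting. THRA, which overlaps NR1D1, had a log2 change of 0.39 (adjusted p 0.00711 in edgeR) in 786-O and -0.05 in WT8. SPHK2, which overlaps DBP, was higher in 786-O (log2 0.34, adjusted p 0.00274) and had -0.06 in WT8 (adjusted p 0.608). NKIRAS1, which overlaps NR1D2, was higher in both lines (log2 0.26 and 0.53). BHLHE40-AS1 had 14 to 82 counts and fell with BHLHE40 in WT8 (log2 -1.87, adjusted p 5.07e-06), and SSPN, which overlaps BHLHE41, had at most 28 counts.

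Other clock genes were read from fixed lists, whose counts stand beside the 48.9% of all genes called in 786-O and 69.8% in WT8 and single out nothing about the lists. Of 10 core clock genes, 4 were higher and 3 lower with shBMAL1 in 786-O, and 8 higher and 2 lower in WT8. Those called in both lines were 7, against 38.1% of all genes, with 12.1% of all genes called in opposite directions. ARNTL was lower in both, the repressor genes PER2 (log2 0.89 and 2.01 in 786-O and WT8), CRY1 (0.61 and 1.02) and CRY2 (0.49 and 1.25) were higher in both, and PER1 (-0.71 and 0.39), PER3 (-0.45 and 0.93) and NPAS2 (0.68 and -0.44) had opposite directions. PER1 and PER3 thus had the directions of TEF, and NPAS2 those of NFIL3. Of 5 tested ROR relatives and REV-ERB cofactors 1 was higher and 1 lower in 786-O and 3 higher and 1 lower in WT8, the deacetylase HDAC3 among the latter 3 (log2 0.32, adjusted p 2.75e-07 in edgeR). Of 8 tested kinases, ligases and proteases that act on clock proteins, 4 were higher and 1 lower in 786-O and 1 higher and 3 lower in WT8. Of 8 other genes that cycle in many tissues, 3 were higher and 4 lower in 786-O and 3 higher and 3 lower in WT8. From that list POR (log2 -0.45 and -1.17), TSC22D3 (-0.66 and -0.93) and KLF10 (-0.14 and -0.90) were lower in both lines, WEE1 (0.27 and 1.77) and CDKN1A (0.12 and 0.13) higher in both, and ALAS1 (-0.16 and 0.23) had opposite directions.

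For each tested gene the most similar profiles over the 12 libraries were found among 16838 genes by the root mean square difference of log2 CPM, each gene centred on its own mean. They were STUB1 (0.085) and DOK4 (0.099) for NR1D1, ATP8B2 (0.15) and CTH (0.206) for NR1D2, CXCL16 (0.301) and LOC107984948 (0.313) for DBP, and TAP2 (0.096) and TMEM14B (0.101) for TEF. For HLF they were NEK10 (0.355) and KCNE3 (0.359), for NFIL3 TSKU (0.092) and GPC6 (0.101), for BHLHE40 A4GALT (0.088) and TMEM129 (0.096), and for BHLHE41 C9orf114 (0.089) and PBDC1 (0.091). No member was among the closest genes of another. Within the family, the closest pair was NFIL3 and BHLHE41 (0.32) and the REV-ERB genes stood at 0.669. The measure is small for genes that vary little. BHLHE41 lay 0.3 from its own mean, NFIL3 0.534, NR1D1 0.499 and NR1D2 0.755. Pearson's r was 0.851 for NFIL3 and BHLHE41 and 0.492 for the REV-ERB genes. These likenesses follow 4 group levels and the libraries are shared by all genes.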

How the data were processed

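The 12 libraries were stranded mRNA libraries sequenced at BGI. What the authors deposited, and what was used, is a table of estimated counts by gene without scaling between libraries. By the methods of the study, reads were aligned to GRCh37 with SeqMan NGen and counts came from ArrayStar, whereas the submitters' processing notes name hg38, STAR and DESeq2. Annotation, use of strand and treatment of reads with several alignments are not given in the sources used here, so values of overlapping genes are uncertain.

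Lines were summed by name, the value 0.028 that stood in for 0 (47.0% of values) was replaced by 0, and other values were rounded, since 5.67% of the other values were not whole where plain counts had been assumed. filterByExpr kept 16838 of 26938 genes with a count. A mean per group was fitted over 12 libraries with edgeR 4.0.16 in R 4.3.3 (TMM, robust quasi-likelihood F test), and all adjusted p-values are from it by Benjamini-Hochberg over all genes tested. The call threshold was an adjusted p of 0.1, as in the study. SE was taken as the log2 change over the root of F, and 95% intervals follow from it. Lengths are of the canonical GENCODE version 44 transcript, which also gave the GRCh37 positions. Replicates varied by a common coefficient of 5.70% beyond counting error. Floors cover counting error only, and mates of a pair may have been counted separately, so p-values measure the spread between these cultures. The script was tested on simulated data in which few genes changed. Scaling under responses as broad as those found here was not covered by that test.

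Named were the 9 members, ARNTL and VHL as checks of the labels, the 2 genes closest to each member, and the genes of 2 clock lists called in both lines. HDAC3, RORB, CD3E, PTPRC, CD14, PECAM1, COL1A1, PDGFRB, KRT19 and the overlapping genes were named after their values were seen. The members and lists were chosen with earlier results of these data known, and the lists were written from memory. Alternatives were another scaling, DESeq2 1.42.0, no filter, only the groups compared, other thresholds, a replicate block and each library left out.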

Additional observations from a re-analysis of the deposited data

Results flagged for a closer look

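For 6 of the 8 genes tested, the change with shBMAL1 differed between the lines by the test of the difference itself, the interaction term of the edgeR fit, which was called for 56.0% of all genes. The log2 change in WT8 minus that in 786-O was -0.53 (adjusted p 0.0152) for NR1D1, 1.15 (adjusted p 9.56e-12) for NR1D2 and -1.88 (adjusted p 0.00355) for DBP. It was 1.04 (adjusted p 0.000129) for TEF, -1.03 (adjusted p 1.47e-11) for NFIL3 and -1.05 (adjusted p 2.23e-15) for BHLHE40. ARNTL itself had -0.86 (adjusted p 0.000368), and the part of this deeper knockdown in WT8 was not tested. For TEF and NFIL3 the 2 lines were called in opposite directions, as they were for 12.1% of all genes. The TEF call in 786-O was lost without the filter and in 3 of 12 fits that each left out 1 library. For NR1D1 and NR1D2 the lines were called in the same direction with different sizes.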

How the results depend on the processing

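With DESeq2, its size factors or a replicate block, all 32 log2 changes kept direction and call, as did the 24 that could be fitted with only the groups compared. The replicate block left 5, 7, 7 and 6 genes called in 786-O, WT8, between the lines and in the interaction. Same-numbered libraries deviated together no more than others (r -0.134 to 0.172 over 18 pairs, others -0.127 to 0.171, 4 of 12 closest to their own number), so the numbers were not taken as pairs. In 786-O 3 genes rather than 5 were called without the filter, at an adjusted p under 0.05 or with a 1.5-fold change, and 3 to 5 with 1 library left out, TEF and BHLHE41 being the genes lost. Between the lines 3 of 7 calls passed 1.5-fold, and 6 to 7 were made with 1 library left out. Over all genes, 1.5-fold left 2408, 6038, 8312 and 4931 calls in 786-O, WT8, between the lines and in the interaction. Some changes that were not called turned sign when 1 library was left out. HLF in 786-O ran from -0.131 to 0.442 and was at -0.118 without 786-O shControl replicate 2, -0.131 without shBMAL1 replicate 1 and -0.035 without shBMAL1 replicate 3. BHLHE40 in 786-O ran from -0.037 to 0.031, below 0 without shControl replicate 2, shBMAL1 replicate 1 or shBMAL1 replicate 2. BHLHE41 in WT8 ran from -0.017 to 0.156, below 0 without shBMAL1 replicate 3. NR1D1 between the lines ran from -0.044 to 0.049, below 0 without 786-O shControl replicate 2 or WT8 shControl replicate 1, and was at -0.002 without the filter. The cause was not tested. By Pearson's r in place of the root mean square difference, STUB1 and CTH alone stayed among the closest genes. Depth limits DBP and HLF in 786-O, with 4 to 19 counts a library.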
